A study of Mus musculus with 3 samples.

Results

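The genes described here encode the machinery of autophagy and were chosen by a rule on gene names, with earlier results of these data known. They are all listed genes whose symbol begins with Atg and a digit, Map1lc3, Gabarap, Ulk and a digit, or Wipi, plus Becn1, Sqstm1, Optn, Tfeb, Tfe3, Rb1cc1, Nbr1, Pik3c3, Pik3r4 and Ambra1. This gave 37 of the 11419 genes in the files, all with an annotated exon length. They fall into the ULK complex (5 genes), the ULK relative Ulk3, the class III PI3-kinase complex (5), membrane supply (5), conjugation (11), the ATG8 family (5), receptors (3) and transcription factors (2). Ulk4 and Atg9b were not listed.

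Autophagy encloses cytoplasm in a double membrane, the autophagosome, and delivers it to the lysosome. A kinase complex built around ULK1 starts the process, a class III PI3-kinase complex marks the membrane with a lipid, and 2 ubiquitin-like conjugation reactions attach proteins of the ATG8 family (LC3 and GABARAP) to the growing membrane. Cargo receptors such as p62 (gene Sqstm1) bind ATG8 proteins on one side and cargo on the other, and the transcription factors TFEB and TFE3 drive many genes of autophagosomes and lysosomes. In myeloid cells the same genes are known for clearing organelles and microbes and for the maturation of granulocytes.

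The libraries were made from messenger RNA of cells sorted from the hind limb marrow (tibiae and femur) of C57BL/6 mice, an inbred strain. The labels name no treatment, transgene or second population. The gate kept cells with CD11b, F4/80 and CD169 on their surface and without CX3CR1, and the labels call them macrophages. There were 3 libraries of this 1 group, of 5150020, 40149274 and 37604930 assigned reads in replicates 1, 2 and 3. Mouse ages are not in the labels, and nothing there ties a library to a separate animal. All errors and p-values thus cover the spread of these 3 libraries alone, which could be technical.

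Markers of the labelled cell type were scarce. Of 10 macrophage genes, 4 were above 10 CPM (counts per 1000000 reads assigned to the listed genes), 4 below and 2 not called. Over all tested genes, 58.8% were above and 28.3% below, by the test described further on. The 10 macrophage genes summed to between 201.2 and 214 CPM in a library. Of the 4 below, Siglec1, which encodes CD169, was at 0.388, 3.66 and 4.57 CPM in replicates 1, 2 and 3. Of the 4 above, Adgre1, which encodes another gate marker, was at 18.6, 26.5 and 21.4 CPM in replicates 1, 2 and 3. The rest of those above were Csf1r, C1qa and Vcam1, at means of 55.1, 18.7 and 74.3 CPM. All 10 neutrophil genes were above 10 CPM and summed to between 183417 and 220521 CPM. The values therefore describe the whole sorted mixture, the part that other cell types take in any autophagy gene was not tested, and in such bulk RNA fewer cells of a type and less RNA per cell cannot be told apart.

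Sequences of the ATG8 genes are shown first, because the largest differences between the related genes compared here lay among them. These are the last 60 coding bases of each gene from GENCODE transcripts of GRCm38, 5′ to 3′ and stop codon included. Capitals mark the last in-frame glycine codon (GG and any base), behind which the ATG4 proteases cut so that the protein can be joined to lipid.
Gabarap: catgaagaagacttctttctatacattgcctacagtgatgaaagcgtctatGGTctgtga
Gabarapl1: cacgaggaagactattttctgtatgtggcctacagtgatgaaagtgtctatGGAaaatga
Gabarapl2: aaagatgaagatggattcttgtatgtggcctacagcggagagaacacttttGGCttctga
Map1lc3a: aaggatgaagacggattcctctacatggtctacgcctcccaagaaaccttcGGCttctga
Map1lc3b: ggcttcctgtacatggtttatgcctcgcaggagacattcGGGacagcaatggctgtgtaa

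In Map1lc3b 5 codons lay between the glycine codon and the stop, and in each of the others 1 codon did. Over the whole coding sequence Gabarap and Gabarapl1 were identical at 74.9% of 354 aligned bases, and Map1lc3a and Map1lc3b at 76.5% of 366. Gabarap and Map1lc3b shared 57.1% of 343 aligned bases. In GRCm38 Map1lc3b spans chr8:121590361-121598760, Gabarapl2 chr8:111940703-111953612 and Map1lc3a chr2:155276297-155278073, all on the plus strand and protein-coding. Copies elsewhere in the annotation were closer. Map1lc3b had 5 processed pseudogenes of 93.9% to 99.7% identity to its coding sequence, and Gabarapl2 had 6 of 90.8% to 99.4%. Rb1cc1 had 1 at 94.8%, and Atg4a was matched by Atg4a-ps at 99.4%. None of these copies was listed in the files, so the values of those 4 genes are uncertain by the reads such copies may share.

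Most autophagy genes were well above 10 CPM. In limma's test of log2(CPM + 1) against that level, 31 of the 37 genes were above (83.8%), 2 were below and 4 were called neither way, at a Benjamini-Hochberg adjusted p under 0.05 over all genes. Of all 11123 genes tested, 58.8% were above and 28.3% below. These shares are the background for every count against 10 CPM by role or list that follows. The median autophagy gene was at 51.0 CPM and the median tested gene at 20.9 CPM. The 2 genes below were Atg10 and Gabarapl1, and the 4 not called were Ulk3, Atg14, Atg4a and Atg4c. All 37 genes had enough reads to be tested, and 36 had at least 10 reads in each library.

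**Figure D1:**
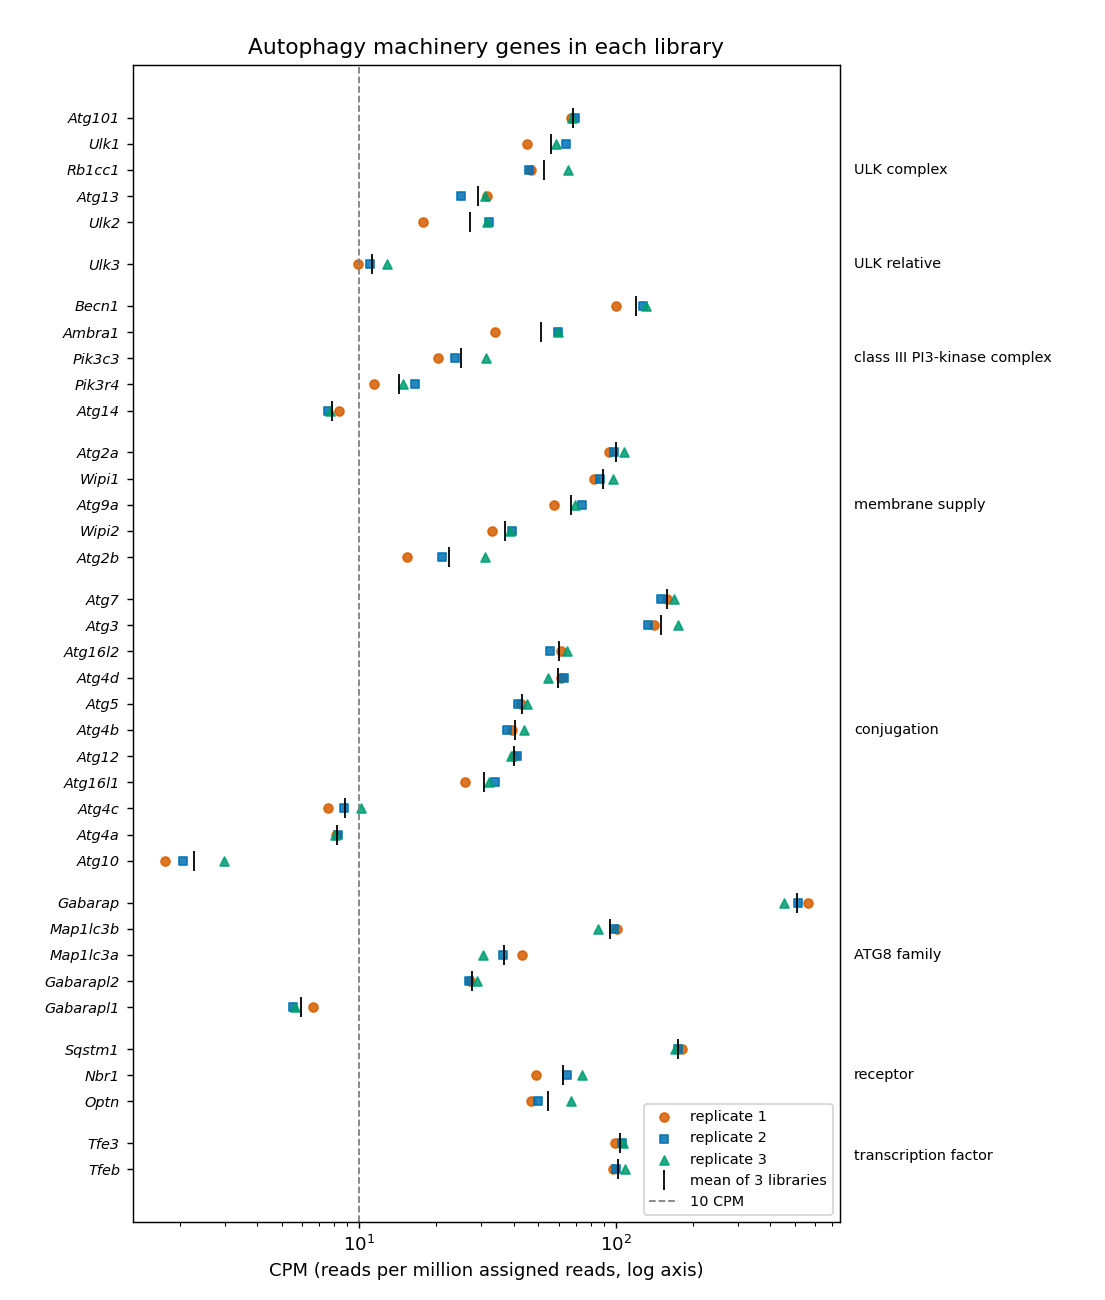
CPM of each autophagy gene (log axis) in the 3 libraries, grouped by role, with the mean as a vertical tick and 10 CPM as a dashed line. Gabarap lies between 452 and 561 CPM, far right of the other genes, and Atg10 lies left of all others at 1.75 to 2.98 CPM.

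Reads rise with transcript length, so levels of different genes were compared per kb of annotated exon. On the scale of log2(CPM per kb + 0.1), each gene was set against the median tested gene of the same library. By limma, 22 autophagy genes were above that median, 9 below and 6 not called, while 42.5% of all tested genes were above and 42.1% below. The 9 below were Ulk3, Pik3r4, Atg14, Atg2b, Atg16l1, Atg4a, Atg4c, Atg10 and Gabarapl1. The median autophagy gene lay 0.88 ± 0.18 above the library median on this log2 scale (SD, n = 3), with 8.33 CPM per kb against 4.62 for the median tested gene.

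**Figure D2:**
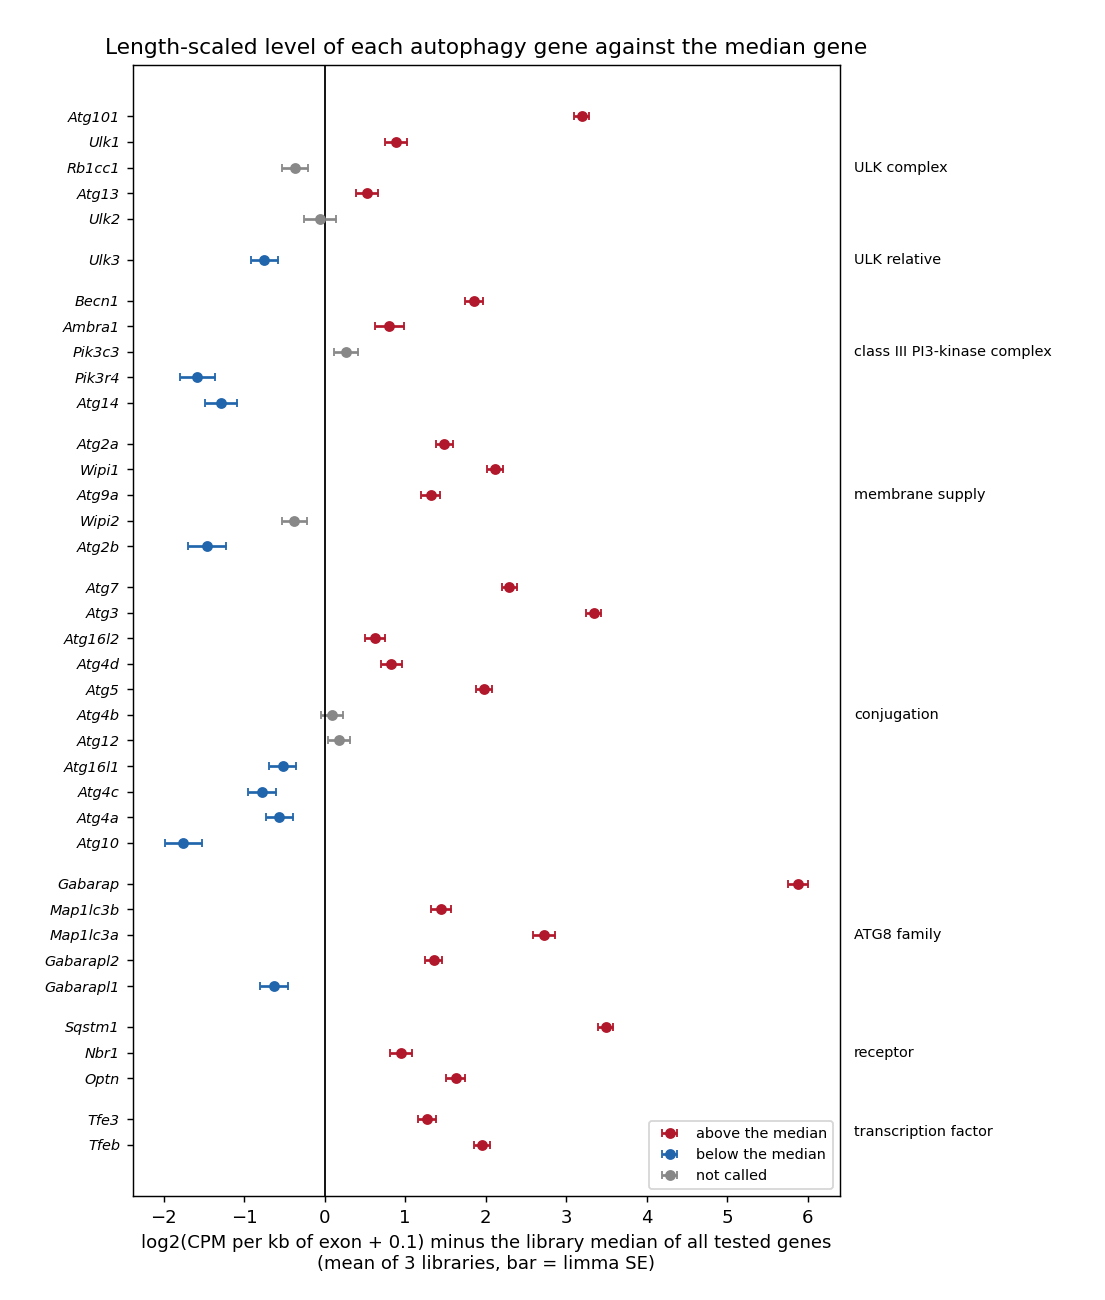
Log2(CPM per kb of exon + 0.1) of each autophagy gene minus the library median of all tested genes, as the mean of 3 libraries with the limma SE, coloured by call. The 3 receptors and both transcription factors lie right of 0, and each of the other roles with over 1 gene spreads to both sides of 0.

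Within the ULK complex, which receives the signals that start autophagy, all 5 genes were above 10 CPM. Atg101, whose product holds ATG13 in its active fold, was at 67.2, 69.2 and 67.7 CPM in replicates 1, 2 and 3. These were the closest values of any gene of this complex, with a coefficient of variation (SD over mean, CV) of 1.58%. Per kb it stood 3.19 above the library median on the log2 scale (SE 0.09, limma adjusted p = 1.20e-07), and it was the only gene of the complex over 10 CPM per kb, at 42.6 ± 0.673.

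The kinase Ulk1 was at 45.2, 64.2 and 58.8 CPM and its relative Ulk2 at 17.7, 32.2 and 31.4 CPM. In both, replicate 1 was the lowest and replicates 2 and 3 lay close together. Per kb, Ulk1 was higher than Ulk2 in 3 of 3 libraries, by 0.95 ± 0.23 on the log2 scale (SD, n = 3). With the longest transcript as length the difference was 1.21. Ulk1 was above the library median (0.89, SE 0.14, limma adjusted p = 0.000701), and Ulk2 was not called (-0.063, SE 0.20, limma adjusted p = 0.773). The scaffold Rb1cc1, also called FIP200, was at 46.6, 45.9 and 65.0 CPM, and Atg13, the regulatory subunit, at 31.5, 24.9 and 31.0 CPM. Rb1cc1 has the longest exon sequence of all 37 genes, 14690 bases, and per kb it was not called (-0.37, SE 0.16, limma adjusted p = 0.0721). Ulk3, a kinase related to ULK1, was at 9.90, 10.98 and 12.8 CPM, on both sides of 10 CPM, and was not called (limma adjusted p = 0.516). Per kb it was below the library median (-0.75, SE 0.17, limma adjusted p = 0.00494).

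The class III PI3-kinase complex had 4 of 5 genes above 10 CPM (80.0%, beside 58.8% of all tested genes). Its genes differed widely. Becn1, the beclin 1 scaffold, was at 101, 128 and 131 CPM, or 17.0 ± 2.37 CPM per kb. The lipid kinase itself, Pik3c3 (VPS34), was at 20.4, 23.7 and 31.2 CPM and its regulatory subunit Pik3r4 (VPS15) at 11.5, 16.5 and 14.9 CPM. Atg14, the subunit that sends this complex to sites of autophagosome formation, was at 8.35, 7.60 and 7.69 CPM, under 10 CPM in all 3 libraries but not called below it (limma adjusted p = 0.203). Ambra1, a regulator of beclin 1, was at 33.8, 59.6 and 59.5 CPM.

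Against the library median per kb, Becn1 (1.86, SE 0.11, limma adjusted p = 4.86e-06) and Ambra1 (0.80, SE 0.18, limma adjusted p = 0.00404) were above. Pik3r4 (-1.58, SE 0.22, limma adjusted p = 0.000393) and Atg14 (-1.28, SE 0.20, limma adjusted p = 0.000655) were below, and Pik3c3 was not called (0.27, SE 0.15, limma adjusted p = 0.132). Without replicate 1 Pik3c3 was above (0.37, limma adjusted p = 0.0481, range 0.0481 to 0.495 over 6 alternatives). The call of Pik3r4 above 10 CPM (limma adjusted p = 0.0371) was lost without replicate 2 (0.301) and without replicate 3 (0.125). It was also lost with no filter on low reads (0.0630), and its adjusted p ran from 2.17e-06 to 0.301 over 11 alternatives, tests against 5 and 20 CPM among them. Exons of Cntd1 on the opposite strand cover 43.9% of the annotated exon bases of Becn1. As the strand setting of the counting is not given in the sources used here, the value of Becn1 is uncertain to that extent.

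All 5 membrane supply genes, which bring lipid to the growing membrane or read its PI3-phosphate mark, were above 10 CPM. Atg2a, a lipid transfer protein, was at 94.4, 98.6 and 107 CPM, and its paralog Atg2b at 15.3, 21.0 and 30.9 CPM. The values of the 2 genes did not overlap, and per kb Atg2a was 2.94 ± 0.38 higher on the log2 scale, or 7.70-fold. The difference was 2.42 with the longest transcript as length, and also 2.42 with a pseudocount of 1. Atg2a was above the library median (1.49, SE 0.10, limma adjusted p = 1.21e-05) and Atg2b below it (-1.46, SE 0.24, limma adjusted p = 0.000850). Atg9a, the scramblase carried by seed vesicles, was at 57.5, 73.9 and 69.4 CPM, and 31.8% of its exon bases are shared with other genes of the same strand, so its counts are uncertain too.

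Wipi1 and Wipi2 encode the proteins that bind PI3-phosphate, and WIPI2 recruits the ATG16L1 conjugation complex. Wipi1 was at 82.3, 87.2 and 97.6 CPM and Wipi2 at 33.0, 39.5 and 38.7 CPM. Per kb Wipi2 minus Wipi1 was -2.49 ± 0.10 on the log2 scale, with Wipi1 higher in 3 of 3 libraries, and it was -1.88 when the longest transcript was used as the length. Wipi1 was above the library median (2.11, SE 0.10, limma adjusted p = 1.10e-06) and Wipi2 was not called (-0.38, SE 0.16, limma adjusted p = 0.0594).

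Of the 11 conjugation genes 8 were above 10 CPM (72.7%) and 1 below, beside 58.8% and 28.3% of all tested genes. Their means ranged from 2.26 to 159 CPM. Highest in CPM was Atg7, the E1-like enzyme that activates both ATG12 and the ATG8 proteins, at 159, 151 and 168 CPM. Next was Atg3, the E2-like enzyme that passes ATG8 proteins to lipid, at 141, 134 and 176 CPM. Per kb the order was turned, with Atg3 at 47.6 ± 7.12 CPM per kb and Atg7 at 22.9 ± 1.25.

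Lowest was Atg10, the E2-like enzyme that joins ATG12 to ATG5, at 1.75, 2.07 and 2.98 CPM, of which replicate 1 rests on 9 reads. It was below 10 CPM (-1.77, SE 0.30, limma adjusted p = 1.05e-05) and below the library median per kb (-1.75, SE 0.23, limma adjusted p = 0.000310). Its substrates were higher, with Atg12 at 40.0, 41.2 and 39.0 CPM and Atg5 at 42.7, 41.6 and 45.0 CPM. Per kb Atg5 stood 1.98 above the library median (SE 0.10, limma adjusted p = 1.71e-06), while Atg12 was not called (0.18, SE 0.14, limma adjusted p = 0.261). With the longest transcript as its length, Atg12 was above (0.43, limma adjusted p = 0.0183, range 0.0183 to 0.622 over 6 alternatives).

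ATG16L1 holds the ATG12 and ATG5 conjugate on the membrane, and ATG16L2 is its paralog. Atg16l2 was at 61.2, 55.5 and 64.6 CPM and Atg16l1 at 25.8, 33.9 and 32.2 CPM, without overlap. Per kb of exon Atg16l2 was 1.15 ± 0.26 higher on the log2 scale, in 3 of 3 libraries. The length measure changes this pair: per kb of longest transcript the differences were 0.45, -0.073 and 0.22 in replicates 1, 2 and 3. The call of Atg16l1 below the library median (-0.52, SE 0.17, limma adjusted p = 0.0233) was likewise turned by that length to above (0.38, limma adjusted p = 0.0387). It was lost without each replicate in turn (0.0524, 0.0825 and 0.0791 without replicates 1, 2 and 3) and with no filter (0.0546), and over its 6 alternatives the adjusted p ran from 0.0216 to 0.0825.

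The 4 ATG4 proteases trim ATG8 proteins behind the glycine shown above and later free them from lipid. In CPM their genes split into a higher and a lower pair. Per kb of exon the means were graded instead, at 8.22 CPM per kb for Atg4d, 4.88 for Atg4b, 3.07 for Atg4a and 2.64 for Atg4c. Atg4d was at 61.4, 63.2 and 54.5 CPM and Atg4b, the most active form toward LC3, at 39.4, 37.8 and 43.9 CPM. Exons of Kri1 on the opposite strand cover 19.3% of the exon bases of Atg4d, so its value is uncertain to that extent. Atg4c was at 7.57, 8.77 and 10.2 CPM and Atg4a at 8.16, 8.27 and 8.08 CPM, and neither was called against 10 CPM (limma adjusted p = 0.477 and 0.275). Per kb Atg4b exceeded Atg4a by 0.65 ± 0.12 and Atg4c by 0.87 ± 0.15 on the log2 scale, and by 1.35 and 1.77 with the longest transcript. Atg4b minus Atg4d was -0.74 ± 0.22 per kb of exon but -0.056 per kb of longest transcript, where replicate 3 turned to 0.19. With that length Atg4b itself was above the library median (0.62, limma adjusted p = 0.00205), and per kb of exon it was not called (0.087, limma adjusted p = 0.570). Per kb, Atg4a and Atg4c were below the library median (-0.56 and -0.78, limma adjusted p = 0.0149 and 0.00433). The call of Atg4a was lost without replicate 2 (0.0923) and without replicate 3 (0.0740), within a range of 0.00528 to 0.0923 over 6 alternatives.

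Among the ATG8 family, Gabarap far exceeded the others. It was at 561, 514 and 452 CPM, which is 5.53 above 10 CPM on the log2(CPM + 1) scale (SE 0.10, limma adjusted p = 3.30e-22). Per kb it was at 304, 279 and 245 CPM, and it took 82.5 ± 0.190% of the summed CPM per kb of the 5 family members (SD, n = 3). That SD covers the spread between libraries only. Reads that Map1lc3b and Gabarapl2 may share with their pseudogenes make the share less certain, and their part was not tested. The next of the 37 genes per kb was Sqstm1, at 52.4 ± 1.72.

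Map1lc3b, the LC3 form most used as an autophagosome marker, was at 102, 98.3 and 85.1 CPM, and Map1lc3a at 43.1, 36.4 and 30.4 CPM. Per kb the order was the reverse, as Map1lc3b has 7517 annotated exon bases and Map1lc3a 1181. Map1lc3b minus Map1lc3a was then -1.28 ± 0.13 on the log2 scale, and -0.51 with the longest transcripts. Gabarapl2, also called GATE-16, was at 27.2, 26.8 and 28.8 CPM. Gabarapl1, the closest relative of Gabarap in sequence above, was lowest of the family at 6.60, 5.50 and 5.64 CPM.

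Per kb Gabarap was higher than Gabarapl1 by 6.50 ± 0.11 on the log2 scale, a 90.7-fold difference. It was higher than Gabarapl2 by 4.52 ± 0.20 (23.0-fold) and than Map1lc3b by 4.44 ± 0.041 (21.6-fold). The values of Gabarapl2 and Map1lc3b are uncertain by the reads their pseudogenes may share. With the longest transcripts the differences from Gabarapl1 and Map1lc3b were 6.81 and 4.03, and with a pseudocount of 1 they were 6.13 and 4.34. Gabarapl1 was below 10 CPM (-0.67, SE 0.24, limma adjusted p = 0.0141). That call was lost without replicate 2 (0.119) or 3 (0.0562), and its adjusted p ran from 2.64e-06 to 0.441 over the same 11 alternatives. Its call below the library median per kb (-0.63, SE 0.17, limma adjusted p = 0.0121) was also lost without replicate 2 (0.0939) or 3 (0.0619), and its adjusted p ran from 0.00241 to 0.0939 over 6 alternatives. Exons of 1700101I11Rik on the opposite strand cover 28.3% of the exon bases of Gabarapl1. In GRCm38 Gabarap (ENSMUSG00000018567) spans chr11:69991143-69994951 on the plus strand and Gabarapl1 (ENSMUSG00000030161) chr6:129533160-129542346 on the plus strand, both protein-coding.

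**Figure D3:**
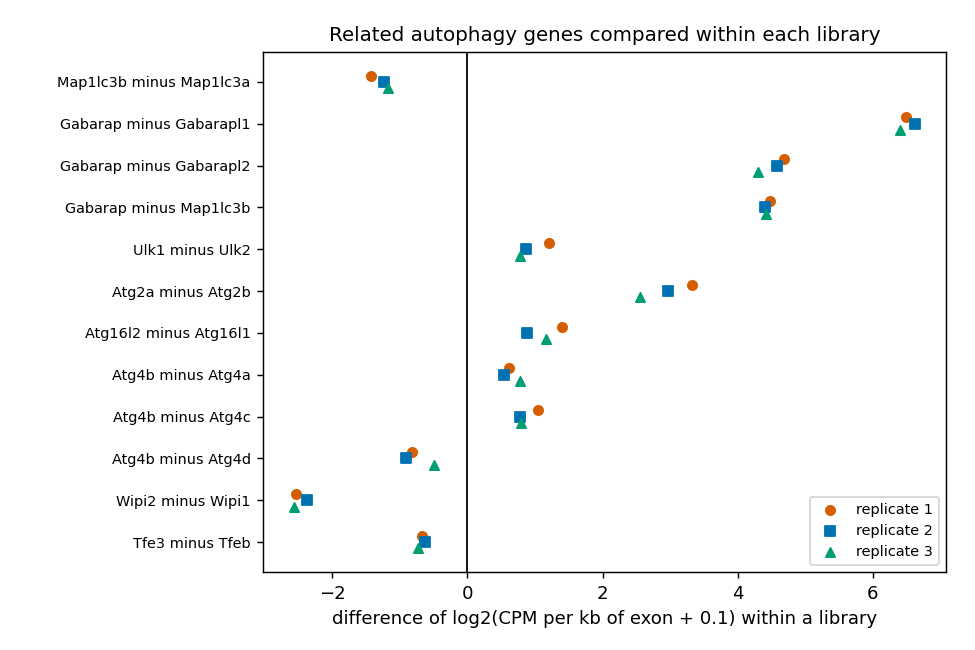
Difference of log2(CPM per kb of exon + 0.1) between 2 related autophagy genes within each library, for 12 pairs. Points of the 3 libraries lie on one side of 0 in every pair, and the pairs that hold Gabarap lie between 4.30 and 6.62.

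Of the 12 pairs of related genes, 8 had the first named gene higher in all 3 libraries and 4 had it lower in all 3. An exact two-sided permutation test by sign flips gave p = 0.25 for each pair, the smallest that 3 libraries allow, and 0.25 after adjustment over the pairs. The sizes and their SD are therefore the result, not the p. Per kb of longest transcript, 7 pairs had the first gene higher in every library.

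The 3 cargo receptors were all above 10 CPM and all above the library median per kb. Sqstm1, which encodes p62 and is itself degraded by autophagy, was at 182, 176 and 170.0 CPM, a CV of 3.29%. It stood 4.01 above 10 CPM (SE 0.11, limma adjusted p = 2.64e-19) and 3.49 above the library median per kb (SE 0.10, limma adjusted p = 9.86e-08). Exons of Mrnip on the opposite strand cover 17.3% of its exon bases. Sqstm1 (ENSMUSG00000015837) spans chr11:50199366-50210827 on the minus strand and is protein-coding.

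Optn, the optineurin receptor of damaged mitochondria and bacteria, was at 46.6, 50.0 and 67.1 CPM. Nbr1, a receptor related to p62, was at 48.7, 64.7 and 73.9 CPM. Both spread over a wider range than Sqstm1, with a CV of 20.2% for Optn and 20.4% for Nbr1, and their values overlapped. Per kb they were 1.63 (SE 0.12, limma adjusted p = 1.44e-05) and 0.95 (SE 0.14, limma adjusted p = 0.000453) above the library median.

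Both transcription factors were alike in CPM, with little spread, at a CV of 5.78% for Tfeb and 4.06% for Tfe3. Tfeb was at 97.3, 100.3 and 109 CPM and Tfe3 at 99.0, 106 and 107 CPM. Per kb of exon Tfe3 minus Tfeb was -0.68 ± 0.054 on the log2 scale, and -1.40 with the longest transcripts. Both factors bind the E-box CACGTG. Promoters in RefSeq's table (GRCm38.p6, 250 bases before to 50 after the gene start) were matched for 31 of the 37 genes, and CACGTG, which reads the same on both strands, stood in 4 of them (12.9%), those of Atg3, Atg5, Atg7 and Atg14. Among all listed genes matched in that table the share was 12.1%, and among all genes in it 8.09%. Flanked by T and A, the E-box stood in 1 of the 31 promoters, that of Atg3, and in 2.32% of matched listed genes. Flanked by GT and AC, the E-box stood in 0 of the 31 and in 0.868% of matched listed genes. A match describes letters only and shows no binding.

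When roles were compared by the median of their genes, receptors, transcription factors, the ATG8 family and membrane supply had the higher values. Per kb, the receptor median was 1.63 ± 0.19 above the library median on the log2 scale, the median of the transcription factors 1.61 ± 0.043, the ATG8 median 1.48 ± 0.15 and the membrane supply median 1.32 ± 0.18. The ULK complex was at 0.51 ± 0.15, the class III PI3-kinase complex at 0.27 ± 0.22 and conjugation at 0.20 ± 0.085 (SD, n = 3). The receptor median exceeded that of the ULK complex by 0.82, 1.21 and 1.32 in replicates 1, 2 and 3, and that of conjugation by 1.24, 1.30 and 1.74. Conjugation minus ULK complex was -0.31 ± 0.19, but 0.20 with the longest transcript as length, so the order of these 2 roles turns with the length used. Each median rests on few genes chosen with results known, and no test was made of it.

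The autophagy genes varied little between libraries. Their median CV was 10.7%, with a range from 1.14% (Atg4a) to 35.2% (Atg2b), and 17 of 37 had a CV under 10%. Over the 9469 tested genes within the same range of mean CPM the median CV was 18.4%. That set shares the range but was not matched for level. Over all 11123 tested genes the median CV was 20.6% and the median level 20.9 CPM, beside 51.0 CPM for the median autophagy gene. The median level of the 9469 genes is not given here. The part of level in the lower CV was not tested. In 31 of the 37 genes the highest library was at most 1.5 times the lowest. The exceptions were Ulk2, Ambra1, Atg2b, Atg10, Pik3c3 and Nbr1, with a largest ratio of 2.01 in Atg2b. Without replicate 3 the median CV was 6.68%. The summed level of all 37 genes was 2475, 2556 and 2627 CPM.

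Replicate 1, the shallowest library, was set against both others by counting error. Exact 95% Poisson intervals of the reads of each library were used, which cover counting error only. By these, replicate 1 lay apart from both other libraries, without overlap, in 8 of 37 genes (21.6%), against 28.4% of all tested genes. It was below both in 7 of the 37 (18.9%), against 17.5% of all tested genes, so the autophagy genes are close to the background. The 7 were Ulk1, Ulk2, Becn1, Ambra1, Atg9a, Atg2b and Nbr1, and the 1 above was Gabarap. For Ulk2 the interval in replicate 1 was 14.2 to 21.7 CPM, and for Ambra1 it was 29.0 to 39.2 CPM, both under the other libraries.

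This moved with transcript length. Spearman's rho between the longest transcript and the log2(CPM + 1) difference of replicate 1 from the mean of the others was -0.41 over the 37 genes. It was -0.33 over all tested genes, which share the same libraries, and genes are not independent replicates. The median difference over all genes was 0.13 in the shortest length class, -0.070 in the middle class and -0.27 in the longest. For the autophagy genes it was -0.022 over the 10 of the shortest class, -0.16 over the 13 of the middle class and -0.30 over the 14 of the longest, lower than over all genes in each class. Markers of some other cell types differed in replicate 1 too, in both directions. Of 6 eosinophil and basophil genes, the basophil and mast cell genes Prss34 (596, 74.5 and 81.2 CPM), Mcpt8 (259, 35.4 and 37.4) and Cpa3 (43.7, 8.77 and 10.1) were highest in replicate 1. The eosinophil genes Prg2 (316, 494 and 722 CPM), Epx (66.4, 122 and 275) and Ear2 (97.1, 150.4 and 165) were lowest there. The 6 summed to 1378, 885 and 1291 CPM. The summed erythroid markers were 931, 515 and 478 CPM. The part of these in the low values of replicate 1 was not tested.

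**Figure D4:**
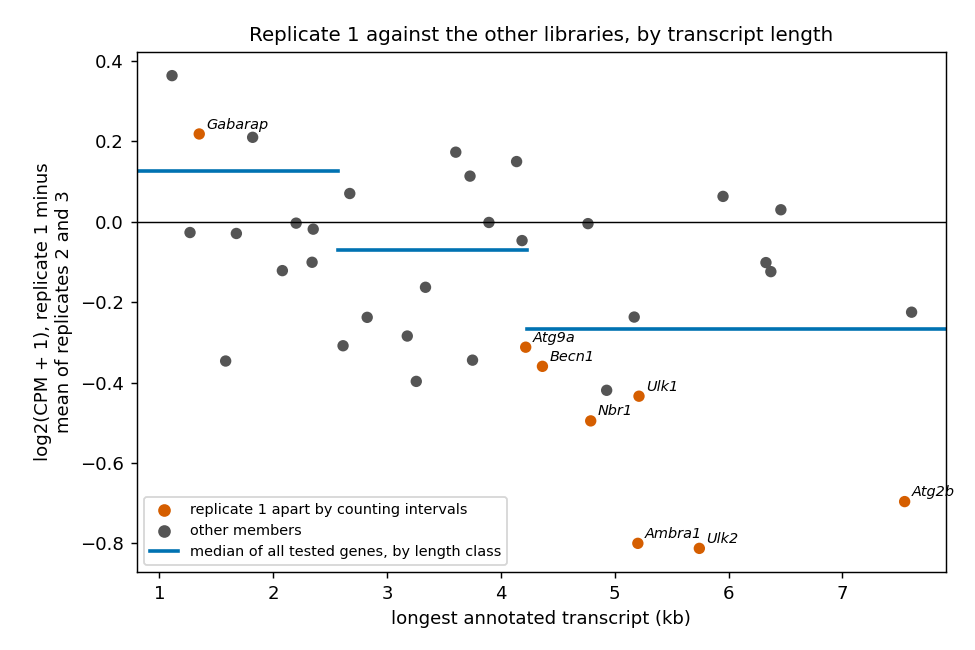
Log2(CPM + 1) of each autophagy gene in replicate 1 minus the mean of replicates 2 and 3, against its longest annotated transcript in kb. Horizontal lines give the median of all tested genes in 3 length classes. The 8 labelled genes lie apart by counting intervals, and Ulk2 and Ambra1 are lowest.

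Other genes of the pathway were taken from a list of 71 symbols outside the naming rule, of which 67 were listed. Of these, 54 were above 10 CPM, 3 below and 9 not called, and 1 (Stbd1) had too few reads to be tested. The share above, 80.6%, stands beside 58.8% for all tested genes. Per kb, 35 were above the library median, 17 below and 14 not called, beside 42.5% above and 42.1% below of all tested genes. By list these were 7 above and 4 below of 15 genes of upstream kinases, their subunits and regulators. They were 5 and 5 of 12 PI3-kinase and WIPI partners, and 10 and 2 of 17 other receptors. They were 1 and 1 of 2 mitophagy signals, 11 and 1 of 16 fusion genes, and 1 and 4 of 5 other transcription regulators.

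The list of upstream kinases, their subunits and their regulators, most of which act in sensing nutrients and energy, had 14 of 15 genes above 10 CPM. Mlst8, a subunit of the mTOR complexes, was at 181 ± 4.37 CPM. Stk11, which encodes the kinase LKB1 that activates AMPK, was at 174 ± 6.68 CPM, and the AMPK subunit Prkab1 was at 147 ± 6.56 CPM (SD, n = 3). Its paralog Prkab2 was the only gene of this list below, at 2.31 ± 0.471 CPM (limma adjusted p = 1.13e-05). Of the partners of the PI3-kinase and WIPI proteins, 7 of 12 were above (58.3%, near the 58.8% of all tested genes) and 5 not called. The highest were Trp53inp2 at 231 ± 17.5 CPM, Sh3glb1 at 126 ± 16.1 and Uvrag at 52.6 ± 4.001.

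Other cargo receptors had 13 of 17 genes above (76.5%, beside 58.8% of all tested genes), and none of the 16 tested was below. Stbd1, the gene not tested, was at 0.777, 0 and 0 CPM. Rtn3, a receptor for tubules of the endoplasmic reticulum, was at 376 ± 56.7 CPM, Fkbp8, a receptor at mitochondria, at 229 ± 26.9 and Tax1bp1, a ubiquitin-binding receptor, at 198 ± 36.4. Of the mitophagy signals, Pink1, the kinase that marks damaged mitochondria, was above at 62.8 ± 8.63 CPM, and Usp30 was not called.

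All 16 genes for fusion with the lysosome were above 10 CPM. Rab7, the GTPase of late endosomes, was at 352 ± 37.8 CPM, and the lysosomal membrane genes Lamp1 and Lamp2 were at 311 ± 17.3 and 229 ± 37.5.

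Other regulators of transcription differed among themselves. Foxo3 was above 10 CPM at 90.5 ± 16.1, and its relative Foxo1 was below at 1.88 ± 0.842 (limma adjusted p = 5.00e-06). Mitf, of the same family as Tfeb and Tfe3, was below as well, at 2.72 ± 0.842 CPM (limma adjusted p = 3.00e-05). Tfec, the remaining member of that family, was above at 14.4 ± 4.06 CPM (limma adjusted p = 0.0434), a call lost without replicate 2 (0.209), without replicate 3 (0.332) and with no filter (0.102), within a range of 3.34e-06 to 0.332 over the same 11 alternatives. Zkscan3, a repressor of autophagy genes, was above at 20.4 ± 8.49 CPM (limma adjusted p = 0.000431), and lost its call without replicate 2 (0.0822, range 3.17e-09 to 0.830 over the same 11 alternatives).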

How the data were processed

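Messenger RNA was measured in 3 libraries of 1 sorted marrow population. The values deposited by the authors were CPM. The submitters' processing notes name FastQC, STAR, featureCounts and edgeR and the builds mm10 and GRCh38; versions, annotation, strand setting and gene filter are not given in the sources used here. Each gene was kept once (44 repeated entries dropped). Dividing values by what 1 read is worth gave whole reads for 100% of them (tolerance 0.01 reads), and so the totals. The CPM of the listed genes summed to 1000000 in each library, so the totals cover the listed genes alone. A value of 0 is compatible with 3 reads, at most 0.583, 0.0747 and 0.0798 CPM, by replicate number.

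Genes with at least 10 recovered reads (11123) entered an intercept fit of log2(CPM + 1) in limma 3.58.1 (R 4.3.3) against 10 CPM, with trended moderation, two-sided, with Benjamini-Hochberg adjustment. The pseudocount understates differences of low genes. Per kb values used exon lengths of GENCODE M21 (GRCm38) and a pseudocount of 0.1. edgeR 4.0.16 and DESeq2 1.42.0 on recovered reads were alternatives. The fits were also run on simulated counts that gave all genes the same spread, a coefficient of variation of 0.326 beyond counting error. The rate of false calls in that run is not given here. The members, lists and tests were chosen with earlier results of these data known. All 37 members are named. Of other pathway genes, up to 3 of highest mean above and 2 of lowest mean below 10 CPM per list are named. Stbd1 and Usp30 were named after their values were seen.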

Additional observations from a re-analysis of the deposited data

How the results depend on the processing

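The count of autophagy genes above 10 CPM was 30 or 31 in the 9 alternatives that kept this level. With the level itself moved, 35 were above 5 CPM and 27 above 20 CPM. The count below 10 CPM was 2, and between 1 and 2 when 1 replicate was left out, while 1 was below 5 CPM and 7 were below 20 CPM. edgeR and DESeq2 on recovered reads each called 31 above and 2 below. Other pathway genes below 10 CPM were 3 to 5 when 1 replicate was left out, and 13 were below 20 CPM. By construction, moving the level turned genes near it: Atg14 (0.56), Atg4c (0.70) and Atg4a (0.61) were called above 5 CPM on the log2 scale, and Ulk3 (-0.79), Pik3r4 (-0.47) and Tfec (-0.48) below 20 CPM. Gabarapl1 at 5 CPM (0.20, limma adjusted p = 0.441) and Zkscan3 at 20 CPM (-0.048, limma adjusted p = 0.830) changed sign without a call. With longest transcript lengths Atg16l1 turned to 0.38 per kb, conjugation minus ULK complex to 0.20 and conjugation minus class III PI3-kinase complex to 0.28 (from -0.065, and between -0.19 and 0.097 with 1 replicate left out). ATG8 family minus ULK complex moved to 1.501 and receptor minus conjugation to 1.15; the different gene lengths are the only change made there. The median CV of the autophagy genes lay between 6.68% and 12.5% with 1 replicate left out. No paired analysis was possible because there was 1 group. At 10 CPM a gene had 51.5 reads in replicate 1, which limits the precision of low genes there.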
